A study of Mus musculus with 10 samples.

Results

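The nuclear genes that encode subunits of the mitochondrial respiratory chain and ATP synthase were compared between mouse melanomas with and without the tyrosine kinase gene Fes. The members were chosen by gene symbol alone, taking the Nduf, Sdh, Uqcr, Cox4 to Cox8 and Atp5 families without pseudogenes, and 83 of the 47643 genes in the deposited tables matched. They comprised 36 genes named for complex I, 4 for complex II, 8 for complex III, 18 for complex IV and 17 for complex V, spread over 19 chromosomes. RNA was sequenced from 10 melanomas, 5 with both copies of Fes deleted (Fes KO, Fes-/-) and 5 with Fes intact (Fes WT, Fes+/+). Tumours of both groups also carried Tyr::CreERT2/+, BRafV600E/+ and Ptenl/l, and were started with 5 mM 4-hydroxytamoxifen applied to the back skin. The Tyr promoter drives the recombinase in pigment cells, and the tumours were sequenced as bulk tissue. In bulk tissue, fewer cells of a type and less RNA per cell cannot be told apart. Whether each tumour is from its own animal is not stated in the labels. The p-values thus reflect only tumour-to-tumour spread, which may be technical.

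Complexes I to IV pass electrons from NADH and succinate to oxygen. Complexes I, III and IV pump protons across the inner mitochondrial membrane, and complex V uses the resulting gradient to make ATP. Most subunits are encoded in the nucleus and imported, while a small core is encoded by mitochondrial DNA. Transcription of the nuclear subunit genes is known to involve the factors NRF1 and GABP, the estrogen-related receptors and the PGC-1 coactivators, and several complex IV subunits exist as a broadly expressed form and a tissue-restricted form. In melanoma, PGC-1alpha is known to mark a subset of tumours rich in oxidative metabolism.

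Total counts lay between 13226783 and 16599120 per tumour, and the 83 members together held 0.511% to 0.804% of them. The level of Fes itself, in CPM (counts scaled to the size of the library), was 38.9 ± 11.5 in the deleted and 81.3 ± 12.7 in the intact group (SD, n = 5 each), with no overlap between groups, but its adjusted p was 0.0846. Sox10, a transcription factor that defines the melanocyte lineage, was at 392 to 970 CPM in the 10 tumours, whereas the pigment genes Tyr and Pmel were at 0.457 to 51.1 and 1.59 to 19.8 CPM. Some tumours stood apart in tissue content. The summed level of 18 skeletal muscle markers was 19555 CPM in Fes WT 3, 2383 in Fes KO 2, 685 in Fes WT 1 and 323 in Fes WT 4, and between 37.2 and 90.5 CPM in the other 6. Keratinocyte markers summed to 6494 CPM in Fes KO 2, 289 in Fes WT 5 and 154 in Fes WT 3, and to 13.4 to 18.3 CPM in the other 7. Xist, transcribed from the inactive X chromosome, was at 670 to 720 CPM in Fes KO 1, Fes KO 2 and Fes WT 5 and at no more than 0.678 CPM elsewhere. Results are therefore also given without these tumours where they change.

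No respiratory chain gene passed the test of Fes KO against Fes WT. Of the 83 members, 79 had enough counts to be tested, and 0 of them passed an adjusted p below 0.05 in edgeR's quasi-likelihood test, in a fit that called 26 of 14816 genes (0.175%). None had an unadjusted p below 0.05 either, against 9.62% of all tested genes, and the lowest was 0.102 (Ndufa6). In every tested member the CPM values of the groups overlapped, while 1.9% of all tested genes had groups that did not overlap. DESeq2 and limma-voom with quality weights also called 0 members, and neither gave a member an unadjusted p below 0.05. The 4 members that were not tested are complex IV isoforms with too few counts in most tumours, namely Cox6a2, Cox8b, Cox7b2 and Cox8c. The other 79 had a count in every tumour.

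The depth and the number of tumours set how small a difference could have been seen. The 95% interval of the log2 fold change (Fes KO minus Fes WT) lay within 0.5 of 0, or 1.41-fold either way, for 68 of the 79 members, and within 1, or 2-fold, for 77. The exceptions at 2-fold were Cox4i2 and Cox7a1, both tissue-restricted isoforms. Within 0.25 of 0, or 1.19-fold, lay the intervals of only 4 members, so for most genes the interval also held differences larger than that.

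**Figure D1:**
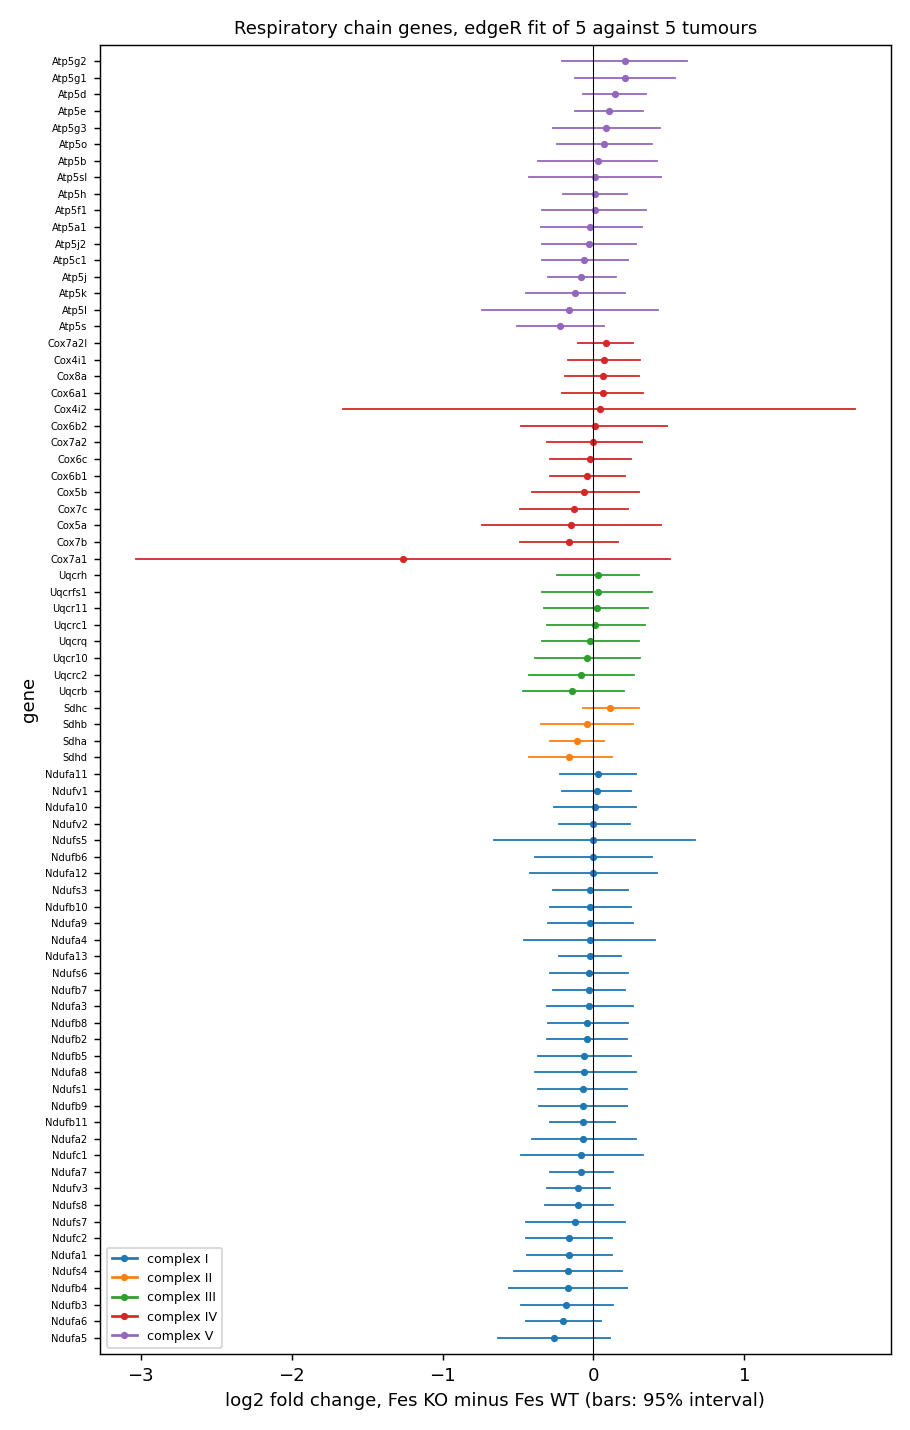
Log2 fold change (x axis, Fes KO minus Fes WT) of 78 of the 79 tested members (y axis), grouped and coloured by complex, with points for the edgeR estimate and bars for its 95% interval over 5 against 5 tumours. Every interval shown includes 0, and those of Cox7a1 and Cox4i2 are the widest.

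The median log2 fold change of the members was -0.03, with 29 genes above and 50 below 0, beside a median of 0.01 over all tested genes, of which 47.6% lay below 0. By complex the medians were -0.05 for I, -0.08 for II, 0.00 for III, -0.01 for IV and 0.01 for V. These directions rested on single tumours. Members above 0 numbered 59 of 79 without Fes WT 3, 10 without Fes KO 2, 11 without Fes WT 4 and 15 without Fes WT 1. With the skeletal muscle marker level as a covariate 51 members were above 0, with the keratinocyte level 15, and with library size as the scaling 41. No direction is therefore given for the members as a group. The plot of directions by setting shows both sides of the even split being reached by leaving out 1 tumour.

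**Figure D2:**
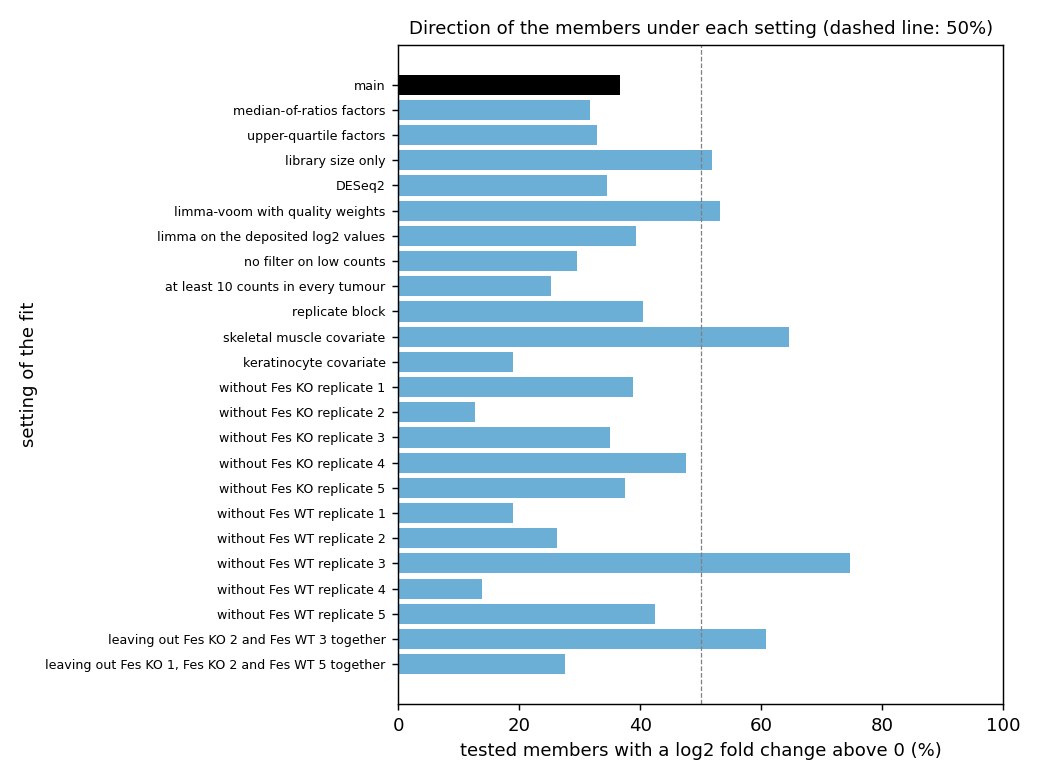
Share of tested members with a log2 fold change above 0 (x axis, percent) in the fit with all 10 tumours and TMM scaling (black, top) and under each alternative (blue). The bars run from 10 of 79 members without Fes KO replicate 2 to 59 of 79 without Fes WT replicate 3, and the dashed line marks an even split.

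Complex I, NADH dehydrogenase, is the entry point for electrons from NADH, and its flavin and iron-sulfur subunits form the catalytic core. Ndufa6, an accessory subunit of the LYR motif family, was at 49.6, 53.4, 52.8, 51.1 and 51.3 CPM in Fes KO 1 to 5. In Fes WT 1 to 5 it was at 54.5, 64.6, 66.4, 44.6 and 66.4 CPM. The Fes KO values lay close together, and Fes WT 4 fell below all of them while the other 4 Fes WT tumours lay above (log2 fold change -0.20, SE 0.11, adjusted p = 0.595). Ndufa5, another accessory subunit, was at 26.1, 28.8, 25.2, 22 and 24.6 CPM in Fes KO 1 to 5 and 25.1, 29.8, 40.2, 21.4 and 35.1 CPM in Fes WT 1 to 5. Again Fes WT 4 was the lowest of the 10 and Fes WT 3 the highest (log2 fold change -0.26, SE 0.17, adjusted p = 0.643). Without Fes WT 4, Ndufa5 and Ndufa6 were the members with an unadjusted p below 0.05, and the lowest adjusted p among members was then 0.34. Among the 7 catalytic core genes 3 had a log2 fold change above 0 and 4 below, with a median of -0.02. Among 28 accessory genes the numbers were 4 and 24, with a median of -0.06. The median of all complex I genes went from -0.117 without Fes WT 4 to 0.048 without Fes WT 3. With the muscle covariate it was 0.012, so no direction is given for this complex either.

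Complex II, succinate dehydrogenase, links the citric acid cycle to the chain and alone has no subunit encoded in mitochondrial DNA. Sdha, its flavoprotein, was at 193, 194, 207, 198 and 211 CPM in Fes KO 1 to 5 and 215, 193, 248, 211 and 220 CPM in Fes WT 1 to 5. The upper Fes KO values and the lower Fes WT values overlapped (log2 fold change -0.11, SE 0.08, adjusted p = 0.672). Sdhc, a membrane anchor, was at 94.0, 102, 102, 104 and 99.2 CPM in Fes KO 1 to 5 and 86.9, 92.1, 108, 81.0 and 95.8 CPM in Fes WT 1 to 5. Here Fes WT 3 was above all Fes KO tumours, and 3 of the other Fes WT tumours were below them (log2 fold change 0.11, SE 0.08, adjusted p = 0.696). Without Fes WT 3, Sdhc had an unadjusted p below 0.05 together with Atp5g1 and Atp5s, and the lowest adjusted p among members was 0.448.

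Complex III, the cytochrome bc1 complex, passes electrons from ubiquinol to cytochrome c. Uqcrh, its acidic hinge protein and the gene of this complex with the highest mean CPM, ranged over 114 to 146 CPM across Fes KO and over 105 to 161 CPM across Fes WT tumours. Uqcrc2, a core protein, was at 63.7, 82.9, 70.1, 66.0 and 71.4 CPM in Fes KO 1 to 5 and 65.0, 60.1, 109, 71.4 and 68.4 CPM in Fes WT 1 to 5. Fes WT 3 was the highest and Fes KO 2 the next, Fes WT 2 was the lowest, and the other values overlapped (log2 fold change -0.08, SE 0.16, adjusted p = 0.905). Uqcrb, the ubiquinone-binding subunit, ranged over 51.8 to 69.0 CPM across Fes KO and over 52.6 to 88.1 CPM across Fes WT tumours, with Fes WT 3 the highest (log2 fold change -0.14, SE 0.15, adjusted p = 0.803). All 8 complex III genes had their highest level of the 10 tumours in Fes WT 3.

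Complex IV, cytochrome c oxidase, reduces oxygen to water. Among its 10 broadly expressed subunits the median log2 fold change was -0.03, with 4 above and 6 below 0. Cox7b was at 69.4, 83.7, 69.8, 70.2 and 63.3 CPM in Fes KO 1 to 5 and 69.5, 70.6, 113, 70.7 and 75.1 CPM in Fes WT 1 to 5. Only Fes WT 3 lay above the Fes KO range (log2 fold change -0.16, SE 0.15, adjusted p = 0.748). Cox4i1, the common form of the regulatory subunit 4 and the complex IV gene with the highest mean CPM, ranged over 193 to 221 CPM across Fes KO and over 162 to 233 CPM across Fes WT tumours (log2 fold change 0.07, SE 0.11, adjusted p = 0.865). Cox7a2l, a factor that joins complexes III and IV into supercomplexes, ranged over 56.2 to 70.7 CPM across Fes KO and over 55.6 to 66.5 CPM across Fes WT tumours (log2 fold change 0.08, SE 0.08, adjusted p = 0.791).

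Complex V, the ATP synthase, includes the catalytic F1 part, a membrane ring of c subunits that turns with proton flow, and a peripheral stalk. Atp5b, the catalytic beta subunit, had the highest mean CPM of this complex and was at 506, 708, 538, 522 and 520 CPM in Fes KO 1 to 5. In Fes WT 1 to 5 it was at 484, 446, 803, 483 and 530 CPM. In each group 1 tumour stood above the other 4, Fes KO 2 and Fes WT 3 (log2 fold change 0.03, SE 0.18, adjusted p = 0.976). Atp5d, the delta subunit of F1, was at 127, 155, 134, 121 and 128 CPM in Fes KO 1 to 5 and 121, 120, 136, 104 and 125 CPM in Fes WT 1 to 5. Fes KO 2 was the highest and Fes WT 4 the lowest, and Fes WT 3 lay above every Fes KO tumour but Fes KO 2 (log2 fold change 0.14, SE 0.09, adjusted p = 0.665). Atp5s, which is named for this complex but is not a structural subunit, ranged over 7.94 to 10.1 CPM across Fes KO and over 8.33 to 11.5 CPM across Fes WT tumours (log2 fold change -0.22, SE 0.13, adjusted p = 0.613). The 3 genes Atp5g1, Atp5g2 and Atp5g3 encode the same mature c subunit, and all 3 had a log2 fold change above 0 (0.21, 0.21 and 0.08). Their summed level was 194, 235, 194, 187 and 194 CPM in Fes KO 1 to 5 and 159, 169, 254, 142 and 205 CPM in Fes WT 1 to 5. The Fes WT sums spread over the whole Fes KO range and beyond on both sides. Of the 3, Atp5g1 had the lowest adjusted p, 0.672.

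The highest and the lowest levels of the members were concentrated in 2 tumours of the same group. Fes WT 3 had the highest CPM of the 10 tumours in 61 of the 79 tested members (77.2%), against 10.5% of all tested genes. Fes WT 4, from the same group, had the lowest in 54 members (68.4%), against 11.3% of all tested genes. These tumours were singled out after their values were seen, and the counts are given as a description. Fes WT 3 was highest in 33 of 36 complex I genes, 4 of 4 of complex II, 8 of 8 of complex III, 7 of 14 tested genes of complex IV and 9 of 17 of complex V. The members had a median level in Fes WT 3 of 1.4-fold the median of the other 4 Fes WT tumours, where all tested genes had 0.998-fold. Without the tissue-restricted isoforms the value was also 1.4-fold. Complex III stood at 1.54-fold and complex II at 1.32-fold. In Fes WT 4 the members were at a median of 0.821-fold the other Fes WT tumours, and in Fes KO 2 at 1.15-fold the other Fes KO tumours.

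**Figure D3:**
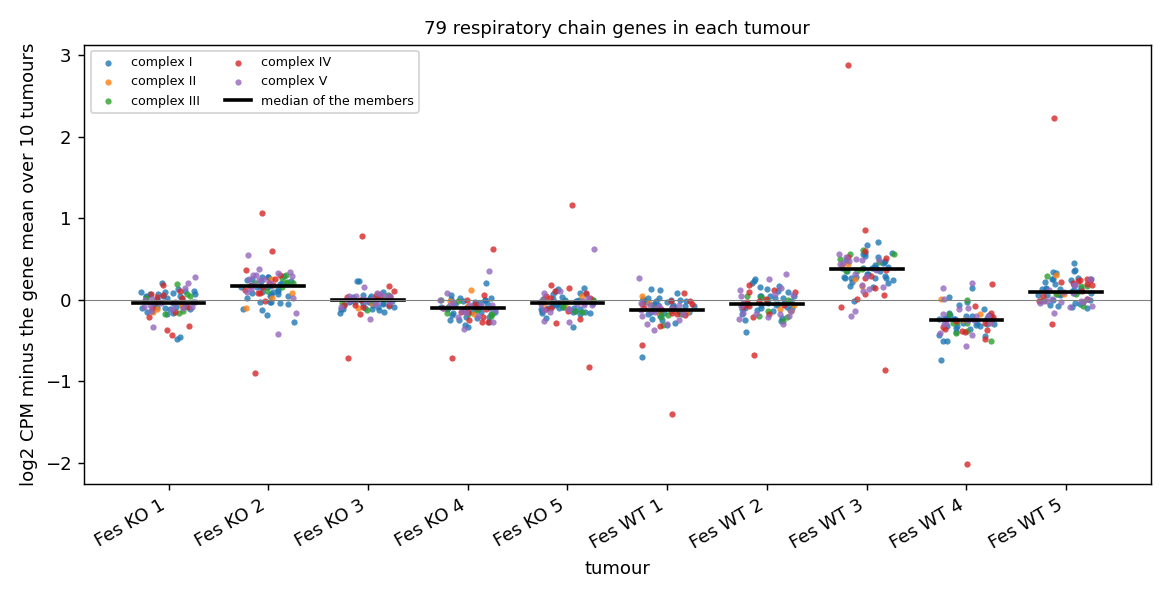
Log2 CPM of each of the 79 tested members minus that gene's mean over the 10 tumours (y axis), by tumour (x axis), with points coloured by complex and black lines at the median of the members. The median was 0.37 in Fes WT 3, -0.25 in Fes WT 4 and 0.17 in Fes KO 2, and between -0.12 and 0.10 in the other 7 tumours.

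Single genes varied widely in how far Fes WT 3 exceeded the other Fes WT tumours. Leaving aside Cox7a1, the excess was 2.05-fold for Ndufs5, 1.93-fold for Cox5a, a matrix-side subunit of complex IV, and 1.88-fold for Ndufa4, a subunit that is named for complex I but found with complex IV. Cox5a was at 18.3, 36, 21.1, 20.1 and 22.2 CPM in Fes KO 1 to 5 and 23.6, 21.1, 43.2, 17.1 and 25.7 CPM in Fes WT 1 to 5. Its 2 highest values were in Fes WT 3 and Fes KO 2, the tumours richest in muscle transcripts. At the other end were Atp5s at 0.782-fold, Atp5sl at 0.831-fold, Cox4i2 at 0.84-fold, Ndufv3 at 0.899-fold, Cox6b2 at 0.909-fold and Cox7a2l at 0.946-fold. The part of muscle tissue in these tumour differences was not tested. The fit with the muscle marker level as a covariate called 0 members, with a median log2 fold change of 0.028, and the fit without Fes KO 2 and Fes WT 3 also called 0, with a median of 0.021. Fes WT 4, where the members were lowest, had the fourth highest muscle marker level, 323 CPM.

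Complex IV has tissue-restricted isoforms that replace a broadly expressed subunit in particular tissues, and these varied most. Cox6a2 (ENSMUSG00000030785, chromosome 7, 128205435 to 128206387, GRCm38), the heart and skeletal muscle form of subunit 6a, was at 0.126, 7.80, 0.616, 0.523 and 0.292 CPM in Fes KO 1 to 5. In Fes WT 1 to 5 it was at 2.68, 0, 59.8, 0.671 and 0.152 CPM. Its level was high in Fes WT 3 and, less so, in Fes KO 2, and close to absent in most of the other tumours. In Fes WT 2 it had 0 counts. Cox8b (ENSMUSG00000025488, chromosome 7, 140898945 to 140900446), the muscle form of subunit 8, followed with 0.126, 3.80, 0.247, 0 and 0 CPM in Fes KO 1 to 5. In Fes WT 1 to 5 it was at 0.588, 0, 20.6, 0.122 and 0 CPM. Cox7a1 (ENSMUSG00000074218, chromosome 7, 30184144 to 30186078), the muscle form of subunit 7a, was at 1.39, 4.12, 1.11, 1.11 and 1.02 CPM in Fes KO 1 to 5 and 2.02, 1.15, 14.9, 1.46 and 1.52 CPM in Fes WT 1 to 5. All 3 genes had the same pair of tumours on top. Cox7a1 was the only one tested, and its log2 fold change was -1.26 (SE 0.80) at an adjusted p of 0.636. Without Fes WT 3 it was 0.19 (SE 0.46, adjusted p = 0.914), and with the muscle covariate -0.17 (SE 0.36, adjusted p = 0.889). It was -0.68 with limma-voom and quality weights, -0.67 with limma on the deposited log2 values and -0.63 with the replicate block. Without Fes KO 2 it was -1.87 and with the keratinocyte covariate -1.45, and in these fits Cox7a1 was the only member with an unadjusted p below 0.05 (adjusted p = 0.413 and 0.423). Without Fes KO 1, Fes KO 2 and Fes WT 5 it was -2.17 (adjusted p = 0.404).

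Per exon length, Cox6a2 made up 35.7% of the sum of Cox6a2 and Cox6a1 in Fes WT 3 and 5.9% in Fes KO 2, and at most 2.59% in the other tumours. Cox8b made up 22.8% of its pair with Cox8a in Fes WT 3 and 4.88% in Fes KO 2. Cox7a1 made up 22.3% of its pair with Cox7a2 in Fes WT 3 and 7.29% in Fes KO 2. The broad partners spanned much narrower ranges over the same tumours. Cox6a1 ranged over 96.6 to 128 CPM across Fes KO and over 82.6 to 128 CPM across Fes WT tumours, Cox7a2 at 62.3 to 92.4 and 61.4 to 91.4 CPM, and Cox8a at 109 to 128 and 86.7 to 135 CPM. None of the broad partners passed the test (adjusted p = 0.904 for Cox6a1, 0.997 for Cox7a2 and 0.905 for Cox8a). Skeletal muscle genes outside the chain lay in the same tumours, with Acta1 at 3930 CPM in Fes WT 3, 501 in Fes KO 2 and at most 127 CPM elsewhere. Of the heart and slow muscle markers, Myh7 was at no more than 0.656 CPM in any tumour, whereas Tnni1 was at 0.914 to 17.3 CPM, with its highest level in Fes KO 5, 5.32 CPM in Fes WT 3 and 1.06 CPM in Fes KO 2. The 5 markers of that list summed to 1.68 to 18.7 CPM and were highest in Fes KO 5. Whether RNA from muscle in these 2 tumours accounts for the isoforms was not tested.

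**Figure D4:**
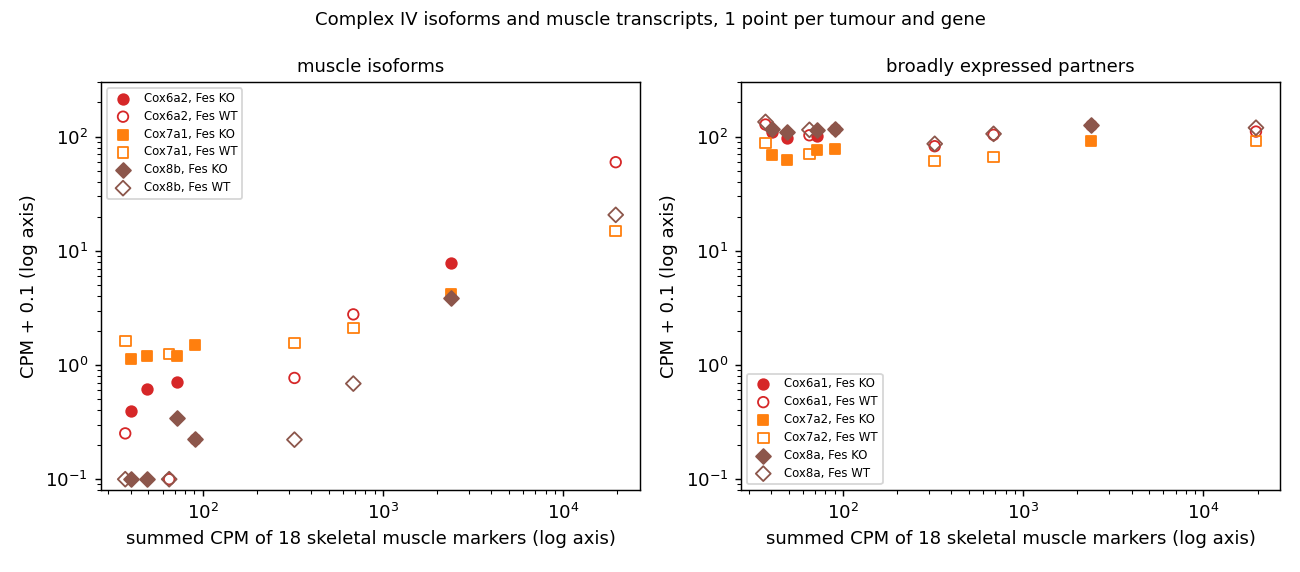
Level of the 3 muscle isoforms (left) and of their broadly expressed partners (right) in each tumour (y axis, CPM plus 0.1, log scale) against the summed CPM of 18 skeletal muscle markers in the same tumour (x axis, log scale), with filled symbols for Fes KO and open symbols for Fes WT. The muscle isoforms are highest in the rightmost tumours, Fes WT 3 with 19555 and Fes KO 2 with 2383 CPM of muscle markers, and the partners stay between 61.4 and 135 CPM.

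The promoters of these pairs are shown because the isoforms and their partners were at such different levels in the same tumours. Cox6a2 had no window in the RefSeq promoters used, so only its partner Cox6a1 is shown. Each sequence below is the 250 bases before the RefSeq start of the gene on the gene's own strand, from GRCm38.p6, with matches to the searched motifs in capitals. The positions are chr7:30183921-30184170 (plus strand) for Cox7a1, chr9:79759854-79760103 (minus strand) for Cox7a2, chr7:140900447-140900696 (minus strand) for Cox8b, chr19:7217617-7217866 (minus strand) for Cox8a and chr5:115348959-115349208 (minus strand) for Cox6a1.
Cox7a1: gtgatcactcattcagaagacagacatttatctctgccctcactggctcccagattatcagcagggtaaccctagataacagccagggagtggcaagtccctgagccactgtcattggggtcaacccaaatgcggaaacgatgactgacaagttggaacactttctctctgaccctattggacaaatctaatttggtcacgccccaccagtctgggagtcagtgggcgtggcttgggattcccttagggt
Cox7a2: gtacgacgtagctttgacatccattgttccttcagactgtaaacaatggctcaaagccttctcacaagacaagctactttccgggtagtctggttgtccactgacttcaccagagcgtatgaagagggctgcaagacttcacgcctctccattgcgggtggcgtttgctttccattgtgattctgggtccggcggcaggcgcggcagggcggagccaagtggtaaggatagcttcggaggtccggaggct
Cox8b: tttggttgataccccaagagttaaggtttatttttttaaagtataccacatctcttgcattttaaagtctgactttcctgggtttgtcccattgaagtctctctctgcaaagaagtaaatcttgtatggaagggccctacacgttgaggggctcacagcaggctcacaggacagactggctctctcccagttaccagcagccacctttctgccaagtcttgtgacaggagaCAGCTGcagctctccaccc
Cox8a: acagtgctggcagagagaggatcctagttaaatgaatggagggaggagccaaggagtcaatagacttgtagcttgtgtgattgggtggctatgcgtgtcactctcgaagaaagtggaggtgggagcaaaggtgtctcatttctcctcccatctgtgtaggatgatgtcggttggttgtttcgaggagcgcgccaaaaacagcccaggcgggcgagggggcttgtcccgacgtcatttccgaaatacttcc
Cox6a1: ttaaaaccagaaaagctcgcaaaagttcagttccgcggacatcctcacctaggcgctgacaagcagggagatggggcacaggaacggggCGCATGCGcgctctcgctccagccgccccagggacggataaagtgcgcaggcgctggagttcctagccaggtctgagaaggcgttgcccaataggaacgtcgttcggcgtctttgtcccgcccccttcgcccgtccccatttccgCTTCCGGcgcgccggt
The muscle isoform windows held 4 CpG dinucleotides in Cox7a1 and 1 in Cox8b, against 14 in Cox7a2, 11 in Cox8a and 26 in Cox6a1. The median was 14 over the 66 member windows in the table, 15 over the windows of tested genes and 6 over all windows. Broadly expressed members had low counts too, such as Ndufc2 with 4 and Cox7b and Uqcr10 with 5 each. In the Cox6a1 window the capitals mark an NRF1 core, CGCATGCG, and a GABP core, CCGGAAG, which stands there on the opposite strand. In the Cox8b window they mark an E-box, CAGCTG, a motif bound by muscle regulatory factors among others. No searched motif was in the Cox7a1, Cox7a2 or Cox8a windows.

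Motifs were counted on both strands of all windows, in the 250 bases before the start only. The NRF1 core was in 6 of 66 member windows (9.1%), namely those of Atp5g2, Atp5k, Atp5l, Cox6a1, Ndufa11 and Ndufa8, against 1.58% of all 27025 windows and 3.08% of those of tested genes. The GABP core was in 11 (16.7%), against 7.05% and 12.97%. CAAGGTCA, a site of the estrogen-related receptors, was in 3 (4.5%), those of Atp5g3, Atp5l and Ndufs5, against 1.31% and 0.89%. The YY1 motif AAGATGGCG was in 0, against 0.61% and 1.15%, and the E-box was in 6 (9.1%), against 12.77% and 12%. None of these motifs contains another. They were chosen with the members known, and a match is a description of the letters only.

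The other tested isoforms were not highest in Fes WT 3. Cox4i2 (ENSMUSG00000009876, chromosome 2, 152754173 to 152765037), the lung and oxygen-sensitive form of subunit 4, was at 10.8, 5.05, 16.4, 14.6 and 21.4 CPM in Fes KO 1 to 5 and 3.53, 10.8, 5.18, 2.26 and 44.7 CPM in Fes WT 1 to 5. Fes WT 5 was by far the highest, and Fes WT 4 the lowest. Per exon length Cox4i2 made up 27.4% of its pair with Cox4i1 in Fes WT 5, and between 2.66% and 16.0% in the other tumours. Its log2 fold change was 0.04 (SE 0.76, adjusted p = 0.994), and without Fes WT 5 it was 1.32 (SE 0.52, adjusted p = 0.386). On all 10 tumours the value also depended on the method, at 1.10 with limma-voom and quality weights, 0.75 with limma on the deposited log2 values and 0.76 with the replicate block, with adjusted p of 0.339, 0.794 and 0.843. Leaving out the 3 tumours with Xist, Fes KO 1, Fes KO 2 and Fes WT 5, gave 1.67 (SE 0.49, adjusted p = 0.19). That was the lowest adjusted p of any member in any fit, and it did not pass. Rgs5, a pericyte gene looked at after these values were seen, was at 195, 111, 333, 282 and 420 CPM in Fes KO 1 to 5 and 206, 235, 142, 104 and 131 CPM in Fes WT 1 to 5. Both genes were high in Fes KO 3, Fes KO 4 and Fes KO 5 and lowest in Fes WT 4, while in Fes WT 5 Cox4i2 alone was high. Higd1b, another pericyte gene, was likewise highest in Fes KO 5, at 7.22 CPM, and was at 1.30 CPM in Fes WT 5. The pericyte genes Kcnj8 and Abcc9 differed from this. They were highest in Fes KO 4, at 17.5 and 36.4 CPM, and lowest in Fes WT 5, at 4.57 and 7.47 CPM. In Fes KO 3 they were at 9.0 and 16.8 CPM, below Fes WT 2 at 14.6 and 20.7 CPM. Abcc9 was also at 36.3 CPM in Fes WT 3. The part of pericytes in the level of Cox4i2 was not tested. The germ cell form Cox6b2 ranged over 3.15 to 5.18 CPM across Fes KO and over 2.68 to 4.73 CPM across Fes WT tumours (log2 fold change 0.01, SE 0.22, adjusted p = 0.997). Its broad partner Cox6b1 was at 95.7 to 119 and 90.8 to 135 CPM (log2 fold change -0.04, SE 0.11, adjusted p = 0.931). The germ cell forms Cox7b2 and Cox8c had 0 counts in all 10 tumours.

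Levels were compared between genes per exon length. Median levels in RPKM (CPM per kilobase of exon) were 31.3 for complex I, 42.7 for II, 56.0 for III, 34.1 for IV and 46.7 for V, and the highest gene was Cox8a at 185 RPKM. The share of each gene's sequence that also occurs in other genes was computed, since reads from such sequence may be counted elsewhere. In 37 members no stretch of 50 bases of the transcripts was shared with another gene, in 29 up to 20% of stretches were, and in 17 more than 20%. The median levels of these 3 sets were 34.9, 41.8 and 28.5 RPKM. Atp5l, a membrane subunit of the ATP synthase dimer, had 84.8% of its stretches shared with 14 other genes and stood at 0.166 RPKM. Its level is therefore uncertain. Uqcrb, with 43.4% shared, and Atp5o, with 47.6%, were at 68.8 and 46.7 RPKM, so a shared sequence did not always go with a low level. How reads with several matches were counted is not given in the sources used here. Exons of 28 of the 83 members overlap another gene, for instance Ndufb2 with Braf and Atp5j with Gabpa. Such overlaps can be among the shared stretches, which were searched on both strands. Reads from such places cannot be assigned without strand, nor with it where both genes lie on the same strand, as for Ndufb8.

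**Figure D5:**
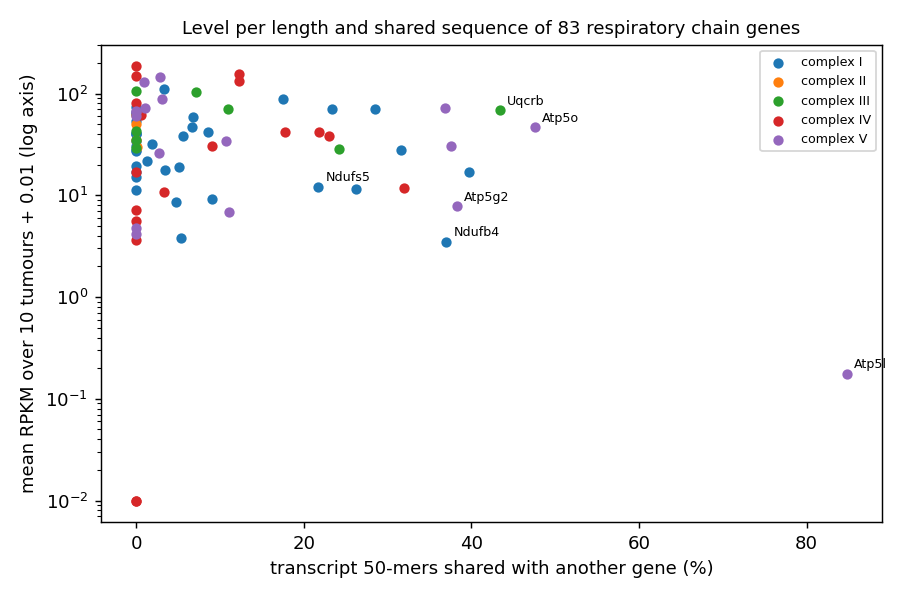
Mean RPKM over the 10 tumours plus 0.01 (y axis, log scale) of each of the 83 members against the share of its transcript stretches of 50 bases that occur in another gene (x axis, percent), coloured by complex. Atp5l, at 84.8% and 0.166 RPKM, stands apart, while Uqcrb and Atp5o with 43.4% and 47.6% lie among the other members.

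Above a common floor of level, the median spread between tumours was close to that of all tested genes, but levels were not matched. The members' median coefficient of variation was 15.5% over the 10 tumours, against 20.7% of all tested genes. At a mean level of at least 10 CPM it was 15.4% against 15.6%. The quartiles there were 11.4% and 18.1% for members and 10.8% and 27.5% for all tested genes. The widest were Cox7a1 at 144% and Cox4i2 at 93.5%.

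In the neighbouring pathways, too, no gene was called. Assembly factors, which build the complexes, had 0 of 44 tested genes called in either direction, with a median log2 fold change of 0.02. Atpaf2, an F1 assembly factor, was the only one with an unadjusted p below 0.05 (log2 fold change 0.24, SE 0.10, adjusted p = 0.505). Transcription regulators of mitochondrial genes had 0 of 20 (median 0.04), the citric acid cycle 0 of 16 (-0.01), electron carriers and further chain subunits 0 of 7 (-0.04) and mitochondrial ribosomal proteins 0 of 76 (0.00). Ppargc1a, which encodes PGC-1alpha, ranged over 0.74 to 3.62 CPM across Fes KO and over 0.061 to 2.23 CPM across Fes WT tumours (log2 fold change 1.06, SE 0.84, adjusted p = 0.714). The factor gene Nrf1 was at 32.7 to 35.9 CPM in the 10 tumours, Gabpa at 67.0 to 117 CPM and Esrra at 27.8 to 43.9 CPM. The citric acid cycle genes followed the tumour pattern of the members at the top, since their summed level was highest in Fes WT 3 (2184 CPM) and Fes KO 2 (1809 CPM), and 1421 to 1624 CPM elsewhere. Those tumours were also highest for mitochondrial ribosomal proteins (2194 and 2094 CPM, 1708 to 2039 elsewhere) and assembly factors (1003 and 959, 848 to 954 elsewhere). The electron carrier list was highest in Fes WT 3 (308 CPM) and Fes WT 5 (292), and the regulator list in Fes WT 4 (738 CPM). The 13 subunit genes of mitochondrial DNA had 0 counts in every tumour, so nuclear and mitochondrial subunits could not be compared here.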

How the data were processed

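Of each tumour the authors deposited raw read counts per gene and normalized log2 values. From the values, the deposited log2 values equal the log2 of the count over a size factor plus 1, to within 5e-11. Per the submitters' processing notes, the tools were Subread (version 1.4.6), STAR (version 2.51b) and FastQC, on GRCm38, also called mm10. For their settings, strand included, nothing is given in the sources used here. Total counts per tumour were between 13226783 and 16599120.

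Counts were tested with edgeR version 4.0.16 (R version 4.3.3), using TMM factors, filterByExpr with the group, the 2-sided quasi-likelihood test, and Benjamini-Hochberg adjustment over 14816 genes. CPM used TMM-scaled library sizes, and SE is the log2 fold change over the square root of F, with intervals of 2.222 SE. Positions and exon lengths came from GENCODE M21 (GRCm38), which held all 83 members, and promoters from RefSeq (GRCm38.p6), which held 66. The edgeR script was tested on simulated data.

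Samples were grouped by their titles, and each tumour counted as 1 replicate. The members, the pathway and marker lists and the alternatives were chosen with earlier results of these data known. Named members are, per complex, the 2 with the smallest p and the 1 with the highest mean CPM, plus the complex IV isoform pairs and Cox7a2l. A gene that this rule takes is not reported here. The further genes named in the text, the tumours set against the rest of their group, the interval bounds, the count of members above 0, the shared stretches and the motifs were chosen after values were seen. Alternatives were other factors, DESeq2 version 1.42.0, limma version 3.58.1 with voom or on the deposited log2 values, other filters and thresholds, a replicate block, tissue covariates and leaving out tumours. Of the marker lists, the summed levels ranged over the 10 tumours from 905 to 3401 CPM for macrophages, 20854 to 41817 for fibroblasts, 205 to 488 for endothelium, 46.9 to 553 for adipocytes, 2.62 to 25.8 for T cells, 0.392 to 1.42 for germ cells, 520 to 1037 for melanocytes, 1.68 to 18.7 for cardiac and slow muscle and 143 to 583 for proliferation. Counts of 4 pseudogenes with a member stem, left out by the rule, came to 29 in all.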

Additional observations from a re-analysis of the deposited data

Results flagged for a closer look

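Within each group of 5 tumours, a tumour was singled out where its gap to the nearest other took most of the range of the group. Of 60 groups of values examined, 16 had such a tumour. The groups share tumours and related genes, so this count is a description and cannot be set against chance. Fes WT 3 was the tumour in 8 of them and Fes KO 2 in 7.

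In Fes WT 3, Atp5b was at 803 CPM where the next Fes WT tumour had 530, Cox6a2 at 59.8 beside 2.68, Cox7a1 at 14.9 beside 2.02, and Cox8b at 20.6 beside 0.588 CPM. In the same tumour Cox7b was at 113 CPM beside 75.1, Uqcrb at 88.1 beside 62.4, and Uqcrc2 at 109 beside 71.4 CPM. Its summed skeletal muscle markers were at 19600 CPM beside 685.

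In Fes KO 2, Atp5b was at 708 CPM where the next Fes KO tumour had 538, Cox6a2 at 7.80 beside 0.616, Cox7a1 at 4.12 beside 1.39, and Cox8b at 3.80 beside 0.247 CPM. Its summed skeletal muscle markers were at 2380 CPM beside 90.5, and its keratinocyte markers at 6490 beside 16.3 CPM. The median of the complex V genes, in log2 CPM minus each gene's mean over the tumours, was 0.249 in Fes KO 2 beside 0.0124 in the next Fes KO tumour.

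In Fes WT 5, Cox4i2 was at 44.7 CPM where the next Fes WT tumour had 10.8 CPM.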

How the results depend on the processing

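The count of called members was 0 in all 23 alternative fits and at an adjusted p below 0.1. The members' median log2 fold change was -0.03 in the fit of all tumours. It went from -0.094 to 0.075 when 1 tumour was left out, so its sign changed. The members' median level in single tumours had an SD of 0.183 within a group, in log2. That spread does not measure how far a difference between groups can move. The number of members above 0, 29 of 79, became 51 with the muscle covariate, 15 with the keratinocyte covariate and 48 without Fes KO 2 and Fes WT 3, and went from 10 to 59 when 1 tumour was left out. The cause was not tested.

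Some named genes, none of them called, changed sign. When 1 tumour was left out, the log2 fold change went from -0.088 to 0.203 for Atp5b, -0.237 to 1.325 for Cox4i2, -0.016 to 0.140 for Cox6a1, -0.107 to 0.058 for Cox6b1, -0.113 to 0.085 for Cox6b2 and -1.868 to 0.186 for Cox7a1. It went from -0.092 to 0.081 for Cox7a2, -0.025 to 0.130 for Cox8a, -0.225 to 0.015 for Uqcrb, -0.156 to 0.098 for Uqcrc2 and -0.032 to 0.135 for Uqcrh. With the muscle covariate it was -0.178 for Cox4i2, 0.024 for Cox6b1 and 0.058 for Uqcrc2. With the keratinocyte covariate it was -0.022 for Atp5b, -0.043 for Cox6b2 and -0.037 for Cox7a2. Without the 3 tumours with Xist it was -0.073 for Atp5b, -0.062 for Cox7a2 and -0.046 for Uqcrh. Without Fes KO 2 and Fes WT 3 it was -0.109 for Cox6b2, -0.009 for Cox7a2 and 0.028 for Uqcrc2. With no filter it was -0.005 for Cox6b2 and -0.004 for Cox7a2, with at least 10 counts in every tumour -0.007 and -0.009, and with median-of-ratios factors -0.001 for Cox7a2.

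The count of called genes over the whole table was 26 of 14816 in the main fit and 299 of 28496 genes fitted with DESeq2. It was 115 of 14816 with voom, 136 of 14816 with the muscle covariate and 1 of 13349 with at least 10 counts in every tumour. At such shares few or no calls are due among the members, so their steady 0 does not show that they moved less. Same-numbered tumours of the 2 groups did not deviate together (correlations 0.172, -0.378, -0.213, -0.105 and 0.137), and no Fes KO tumour correlated best with its own number. These correlations cannot settle whether the numbers pair the tumours, and the labels do not say. With the replicate block 0 members and 4 genes were called, and the members' median was -0.015. Intervals and counts cover only the 10 tumours at these depths.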
